A study of Mus musculus with 2 samples.

Results

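The genes described are 10 regulators of T cell activation in kidneys of lupus-prone mice. They comprise the inhibitory receptors *Pdcd1* (PD-1), *Ctla4*, *Lag3*, *Havcr2* (TIM-3) and *Tigit*, the costimulatory receptors *Cd28*, *Icos* and *Tnfrsf4* (OX40), and the PD-1 ligand genes *Cd274* (PD-L1) and *Pdcd1lg2* (PD-L2). The members were taken by gene symbol, and all 10 were found among the 31053 genes of the count matrices. The data are single-cell RNA sequencing (scRNA-seq) counts from 1 library of old and 1 library of young MRL-*lpr* mice, each made from pooled kidneys. Both groups carry the *lpr* mutation of *Fas*, which impairs deletion of activated lymphocytes and leads to lupus-like disease with age, and no mice without it were sequenced. The labels give age only as old or young. The methods define both groups by age in weeks and treat young mice as a control or mildly affected group. Cells passed a density gradient, magnetic enrichment of innate lymphoid cells (ILCs) and a live-cell sort, so class sizes are not kidney frequencies.

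T cells need a second signal besides antigen. CD28 gives it on binding CD80 or CD86 on antigen-presenting cells, CTLA-4 competes for the same ligands, and ICOS and OX40 add later costimulation. PD-1, LAG-3, TIM-3 and TIGIT restrain T cells that stay stimulated, and their joint expression together with the transcription factor TOX is known from chronic infection and tumors. PD-L1 can be induced by interferons on many cells, tubular epithelium included, whereas PD-L2 is known mostly from myeloid cells.

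Of the young library, 11429 of 15076 barcodes passed the filters (200 or more genes, mitochondrial unique molecular identifiers, UMIs, at 20% or less), with a median of 7881 UMIs, and of the old library 10232 of 12622, with a median of 6933. Cells were then assigned by marker genes to gated classes. T cells had UMIs of CD3 genes and of a T cell receptor constant gene, and were split by *Foxp3*, *Cd4*, and *Cd8a* or *Cd8b1*. The CD4-CD8- class had *Trac* but no UMI of any of these, so a CD4+ cell whose *Cd4* was not captured falls into it. ILC2s and NK cells had no CD3 UMI. The NK gate used *Ncr1*, *Klrb1c*, *Klre1*, *Klrk1*, *Eomes* and *Tyrobp* and does not separate NK cells from ILC1s, so its NK cells can include ILC1s. The young and old libraries held 102 and 1071 CD4+ T cells, 30 and 112 *Foxp3*+ Treg cells, 159 and 1132 CD8+ T cells, 132 and 1367 CD4-CD8- T cells, 1379 and 317 ILC2s, and 195 and 208 NK cells. A further 230 and 326 CD3+ cells passed no subset gate, lacking *Trac* and the subset genes or having an ambiguous combination of them. They are described apart and are not among the ordered classes. Levels are UMIs of a gene in a class relative to all UMIs of that class (counts per 1000000, CPM), with an exact Poisson 95% interval in parentheses. Paired values are given young first, then old. The log2 ratio of old over young has an exact binomial 95% interval. All intervals cover counting error only, since with 1 library per age the spread between mice is unknown and no test was possible. The methods name female mice, yet 53.5% of young and 44.6% of old cells had UMIs of Y-linked genes. Cells with Y-linked but no *Xist* UMIs made up 50% of young and 24.6% of old CD4-CD8- T cells. Ratios were therefore also taken within cells with only Y-linked or only *Xist* UMIs. The libraries shared 26 barcodes among kept cells.

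**Figure D1:**
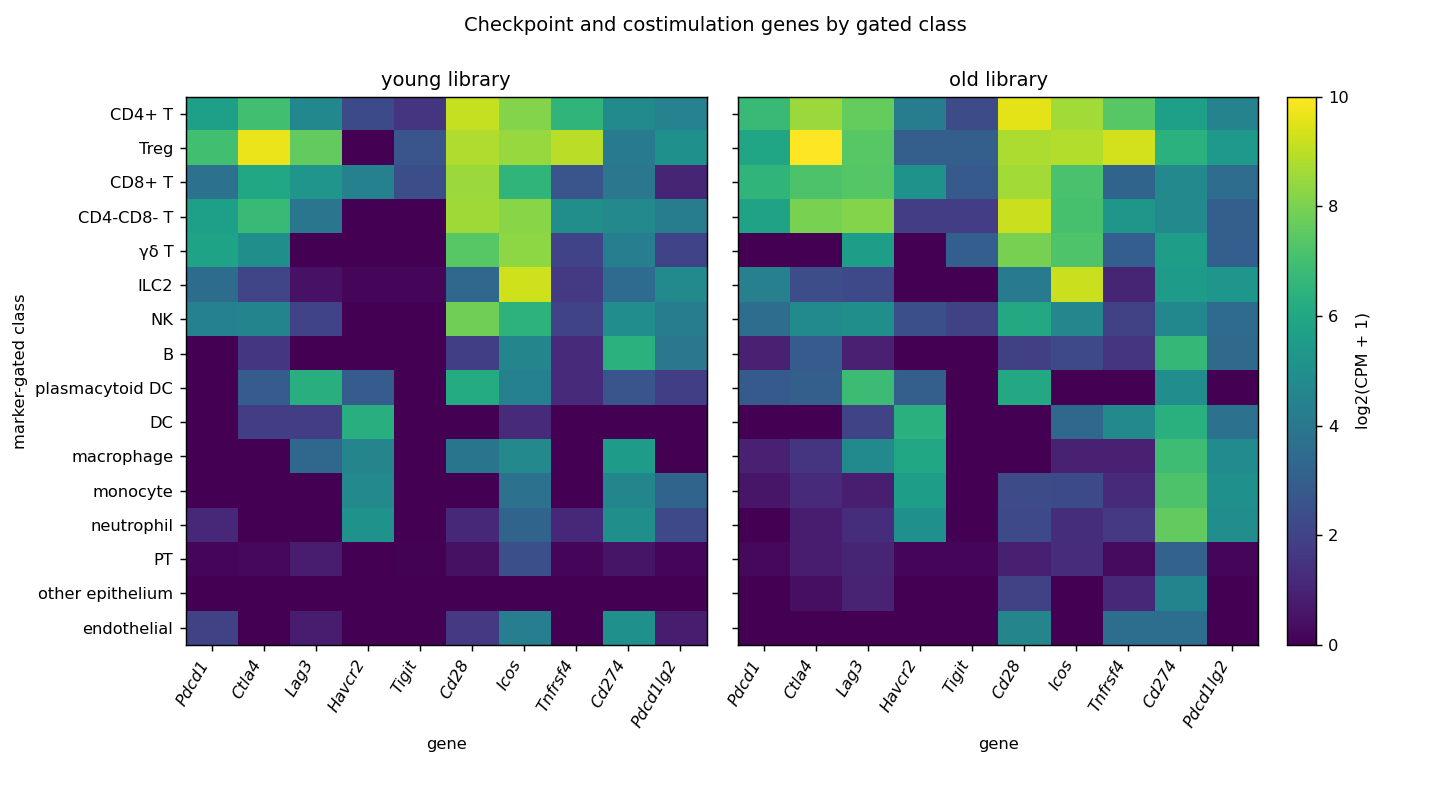
Levels of the 10 genes as log2(CPM + 1) (color) in marker-gated classes (rows) of the young and the old library. *Lag3* and *Ctla4* are brighter across the CD4+, CD8+ and CD4-CD8- T cell rows of the old library, *Icos* is brightest in ILC2s of both, and *Cd274* is brighter in the old myeloid rows.

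The receptors are known as T cell genes, but *Icos* and *Havcr2* were not highest in T cells. *Icos* had its highest level in ILC2s, at 617 (599–635) and 593 (559–628) CPM, above Treg cells by a log2 ratio of 0.83 (0.48–1.20) in the young and 0.37 (0.19–0.55) in the old library. *Havcr2* was at 77 (58.9–98.9) CPM in young dendritic cells and at 20.1 (12.1–31.4) CPM in young CD8+ T cells. In the old library *Havcr2* was at 61 CPM in macrophages and 47.2 CPM in monocytes, whose order did not differ beyond counting error. Classes of under 20 cells were not ordered, and the 15 old dendritic cells had *Havcr2* at 80.8 (52.8–118) CPM, from 26 UMIs. *Lag3* and *Cd28* were also found in plasmacytoid dendritic cells, *Lag3* at 79.3 and 116 CPM and *Cd28* at 70.0 and 64.1 CPM. *Ctla4* and *Tnfrsf4* were highest in Treg cells at both ages. *Ctla4* stood above the next class, CD4+ T cells, by a log2 ratio of 2.71 (2.29–3.15) (young) and 1.45 (1.33–1.58) (old), and *Tnfrsf4* by 2.43 (1.91–2.96) and 1.91 (1.75–2.07). *Pdcd1* was highest in Treg cells of the young library and in CD4+ T cells of the old one, the latter above CD8+ T cells by 0.25 (0.10–0.40). *Cd28* was highest in CD4+ T cells at both ages, though its lead over Treg cells in the young library, 0.30 (-0.05 to 0.67), was within counting error. *Tigit* was scarce, with at most 4 UMIs in a young and 50 in an old T cell class. Proximal tubule (PT) cells, which should lack the receptors, showed the background: *Icos* was at 4.4 and 1.41 CPM there, and the other receptors did not exceed 1.05 CPM.

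Of the inhibitory receptors in the 4 gated T cell subsets CD4+, Treg, CD8+ and CD4-CD8-, *Lag3* in CD4-CD8- T cells had the highest old over young ratio. LAG-3 binds MHC class II. In CD4-CD8- T cells *Lag3* was at 14.1 (6.45–26.8) and 285 (272–298) CPM, a log2 ratio of 4.34 (3.41–5.47) that ran from 3.39 to 5.16 over 10 alternative settings. Of these cells, 3.79% (young) and 51.8% (old) had a *Lag3* UMI. After thinning of each cell to 2000 UMIs the shares were 1.56% (0.19–5.53%) and 35.5% (32.9–38.2%), against 0.214% and 0.173% in PT cells. In CD4+ T cells *Lag3* was at 24.4 (13–41.7) and 197 (186–208) CPM, a log2 ratio of 3.01 (2.23–3.93), and in CD8+ T cells at 36 (24.9–50.2) and 164 (155–173) CPM, a log2 ratio of 2.19 (1.70–2.73). NK cells held 3 young and 42 old UMIs, a log2 ratio of 3.37 (1.72–5.70). In Treg cells the intervals overlapped, at 195 (137–268) and 169.8 (141–203) CPM. There 1 young cell held 64.9% of the young UMIs, and without the top cell of each library the log2 ratio went from -0.20 to 1.04. It was -2.07 (-3.08 to -1.11) in Treg cells with only Y-linked UMIs and 3.56 (1.02–8.89), from 1 young UMI, in those with only *Xist* UMIs, so no direction is read for Treg cells. The order of *Lag3* in the old library began with CD4-CD8- T cells, above CD4+ T cells by a log2 ratio of 0.53 (0.43–0.64), while CD4+ over Treg cells, 0.21 (-0.06 to 0.50), and Treg over CD8+ T cells, 0.05 (-0.23 to 0.32), did not differ beyond counting error.

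The CD4-CD8- gates of the libraries also differed in other genes. *Eomes*, a transcription factor of effector lymphocytes, was at 28.2 and 559 CPM in these cells, *Il7r*, the interleukin-7 receptor gene, at 340.1 and 109 CPM, and the NK receptor gene *Klrk1* at 155 and 51.7 CPM. Whether the same kind of cell fills this gate at both ages was not tested.

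CTLA-4 outcompetes CD28 for its ligands and is a hallmark of Treg cells. *Ctla4* was at 826 (702–965) and 998 (925–1070) CPM in Treg cells, a log2 ratio of 0.27 (0.02–0.53). In CD4+, CD8+ and CD4-CD8- T cells the ratio was past 2-fold. CD4+ T cells had 126 (97.5–160) and 364 (349–379) CPM, a log2 ratio of 1.53 (1.18–1.91), which was 0.93 with stricter gates. CD8+ T cells had 61.3 (46.6–79.3) and 148 (139–156) CPM, a log2 ratio of 1.27 (0.89–1.67), and CD4-CD8- T cells 108 (84.2–137) and 252.5 (240–265) CPM, a log2 ratio of 1.22 (0.88–1.59). The intervals of the libraries did not overlap in these 3 classes. In ILC2s, *Ctla4* was at only 3.31 and 4.1 CPM.

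PD-1 is the receptor of both ligands described below. *Pdcd1* in CD8+ T cells was at 12.7 (6.56–22.2) and 92.2 (85.6–99) CPM, a log2 ratio of 2.86 (2.05–3.82) that stayed within 2.63 to 3.50 over 11 alternatives. In CD4+ T cells it was at 48.8 (31.9–71.5) and 109.7 (102–118) CPM, a log2 ratio of 1.17 (0.60–1.79), which fell to 0.31 with stricter gates. In CD4-CD8- T cells the level was 48.6 (33–69) and 53.6 (48–59.6) CPM, and the log2 ratio of 0.14 (-0.39 to 0.72) allows a difference in either direction. There 1 young cell held 35.5% of the young UMIs, and without the top cell of each library the log2 ratio was 0.73. It was 0.49 in cells with only Y-linked UMIs and -1.26 (-2.07 to -0.32) in those with only *Xist* UMIs. Treg cells went in the direction opposite to CD4+ and CD8+ T cells. Their level was 126 (80.9–188) CPM in 30 young cells and 58 (41.6–78.7) CPM in 112 old cells, a log2 ratio of -1.12 (-1.88 to -0.33). This value rested on few cells, as 1 young Treg cell held 45.8% of the young UMIs. The log2 ratio was -1.50 in cells with only Y-linked UMIs and 0.59 in cells with only *Xist* UMIs. γδ T cells held 18 *Pdcd1* UMIs in 63 young cells and none in 20 old cells, where 3 UMIs would be a level of 20.5 CPM. In ILC2s *Pdcd1* was at 10.5 (8.29–13) and 19.5 (13.8–26.7) CPM, a log2 ratio of 0.90 (0.30–1.47).

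*Havcr2* and *Tigit* were sparse in lymphocytes. *Havcr2* in CD8+ T cells was at 20.1 (12.1–31.4) and 33.8 (29.9–38.1) CPM, a log2 ratio of 0.75 (0.08–1.51). A single young cell held 52.6% of the young UMIs, and without the top cell of each library the log2 ratio was 1.75, past 2-fold. Of CD8+ T cells, 3.14% (young) and 13.5% (old) had a UMI. In CD4+ T cells *Havcr2* had 2 young and 110 old UMIs, a log2 ratio with a wide interval, 2.23 (0.35–5.30). No *Havcr2* UMI was found in 132 young CD4-CD8- T cells, where 3 UMIs would be a level of 4.7 CPM, and the old level was 2.51 CPM. *Tigit* had 4 young and 50 old UMIs in CD8+ T cells and 1 and 25 in CD4+ T cells. The intervals of both log2 ratios, 0.55 (-0.90 to 2.48) and 1.10 (-1.51 to 6.46), held 0, so a difference was not detectable at this depth.

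**Figure D2:**
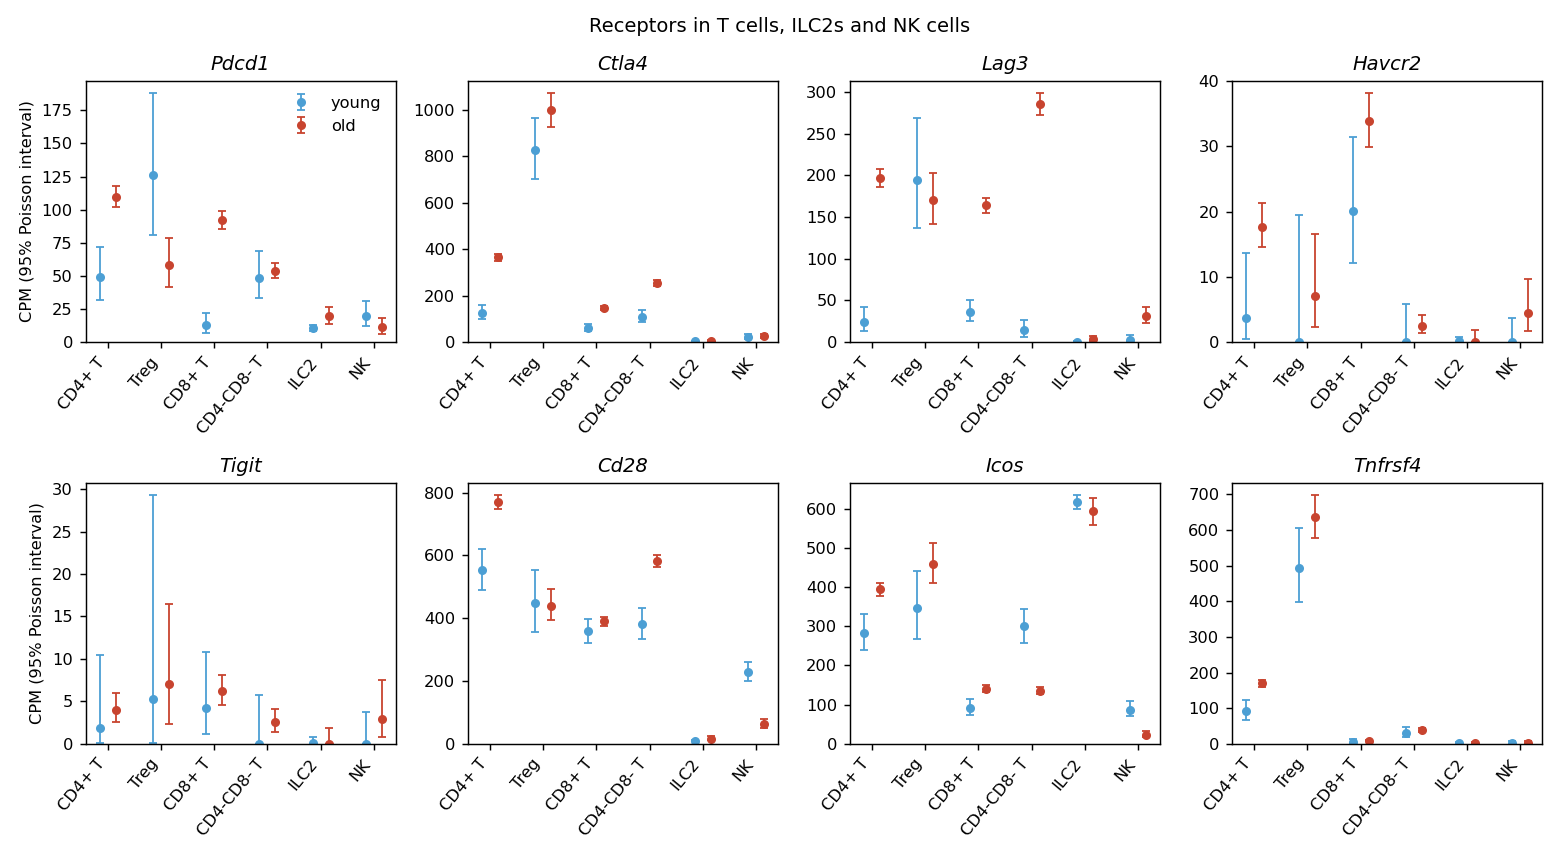
Levels in CPM of the 8 receptor genes in T cell classes, ILC2s and NK cells of the young (blue) and old (red) libraries; bars are exact Poisson 95% intervals and axes start at 0. *Lag3* is higher in the old library in CD4+, CD8+ and CD4-CD8- T cells but not in Treg cells, while *Icos* in CD4-CD8- T cells and *Cd28* in NK cells are lower.

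The old over young ratios of *Cd28* and *Tnfrsf4* were under 2-fold in CD4+, Treg, CD8+ and CD4-CD8- T cells, though not under every alternative setting. *Cd28* was at 552 (491–619) and 770.2 (749–792) CPM in CD4+ T cells, at 357.5 (320–398) and 389.9 (376–404) CPM in CD8+ T cells and at 447 (357–553) and 440.1 (393–492) CPM in Treg cells. The corresponding log2 ratios were 0.48 (0.31–0.66), 0.13 (-0.04 to 0.29) and -0.02 (-0.37 to 0.34), so that of these 3 classes only CD4+ T cells had a ratio whose interval left out 0. CD4-CD8- T cells had 381 (335–432) and 582 (564–601) CPM, a log2 ratio of 0.61 (0.42–0.81). In NK cells *Cd28* was lower in the old library, at 229.5 (201–261) and 64.2 (51.4–79.2) CPM, a log2 ratio of -1.84 (-2.21 to -1.48) that lay within -1.97 to -1.50 over 11 alternatives. *Il7r* in the same NK gate was at 191 and 70.8 CPM, and whether the same kinds of cell fill this gate at both ages was not tested.

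ICOS supports helper T cells and ILC2s, and its ligand gene is *Icosl*. *Icos* in ILC2s had a log2 ratio of -0.06 (-0.15 to 0.04), although it was -0.87 in cells with only *Xist* UMIs and 0.09 in those with only Y-linked UMIs. After thinning, 58.3% (55.5–61%) of young and 54.4% (48.7–60.1%) of old ILC2s had a UMI of *Icos*, against 0.659% and 0.26% of PT cells. *Icosl* was itself detected in ILC2s, at 43.3 and 45.6 CPM. CD4+ T cells had 283 (240–332) and 394 (378–410) CPM of *Icos*, a log2 ratio of 0.47 (0.24–0.72), and CD8+ T cells 92 (73.7–113) and 140.3 (132–149) CPM, a log2 ratio of 0.61 (0.29–0.94). CD4-CD8- T cells went the other way, at 299 (258–345) and 135 (126–144) CPM, a log2 ratio of -1.15 (-1.38 to -0.91) that was -0.66 within cells with only Y-linked UMIs. γδ T cells were at 315 (257–381) and 150.4 (94.3–228) CPM, a log2 ratio of -1.06 (-1.80 to -0.39). NK cells were lower as well, at 87.2 (69.8–108) and 23.6 (16.1–33.3) CPM, a log2 ratio of -1.89 (-2.52 to -1.29). PT cells, the background, also had less *Icos* in the old library, with a log2 ratio of -1.64, but at levels under 5 CPM.

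OX40 sustains effector and Treg cells. *Tnfrsf4* was at 494 (399–605) and 637 (579–698) CPM in Treg cells, a log2 ratio of 0.37 (0.04–0.70). CD4+ T cells had 92 (68–122) and 169.6 (160–180) CPM, a log2 ratio of 0.88 (0.47–1.33). This ratio was 1.23 without the top cell of each library and 0.31 with stricter gates. It was 1.13 in cells with only Y-linked UMIs and 2.49 in those with only *Xist* UMIs. CD4-CD8- T cells had 29.8 (17.9–46.5) and 38.3 (33.7–43.5) CPM, with overlapping intervals. CD8+ T cells were at 5.29 and 8.3 CPM, from 5 young UMIs, a log2 ratio of 0.65 (-0.64 to 2.32). *Tnfsf4*, the gene of its ligand, had no UMI in macrophages, monocytes or neutrophils of either library.

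In CD4+ T cells, 5 of 10 members were at least 2-fold higher in the old library (*Pdcd1*, *Ctla4*, *Lag3*, *Havcr2* and *Tigit*) and 0 lower, while 10.0% of 10091 genes with 20 or more UMIs were higher and 4.54% lower. The median log2 ratio was 1.0 over the members and 0.13 over all genes. With stricter gates 3 of the 5 (*Pdcd1*, *Ctla4* and *Tigit*) were under 2-fold, and *Tigit* rests on 1 young UMI. In CD8+ T cells 4 of 10 were higher (*Pdcd1*, *Ctla4*, *Lag3* and *Pdcd1lg2*) and 0 lower, against 8.21% and 4.41% of genes, with medians of 0.76 and 0.06. CD4-CD8- T cells had 2 higher (*Ctla4* and *Lag3*) and 2 lower (*Icos* and *Pdcd1lg2*) of the 8 members with enough UMIs, where 13.3% of genes were higher and 7.87% lower. Treg cells had 1 higher (*Cd274*) and 1 lower (*Pdcd1*) of 8, against 10.7% and 4.33%. ILC2s had 1 higher (*Cd274*) and 0 lower of 6, against 7.78% and 4.74%, and NK cells 1 higher (*Lag3*) and 2 lower (*Icos* and *Cd28*) of 7, against 2.86% and 7.83%. A member can reach the minimum of 20 UMIs through the library where it is higher, so these counts are descriptive.

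The CD3+ cells that passed no subset gate also differed between the ages. Of 9 members with enough UMIs, 6 were at least 2-fold higher in the old library and 1 lower, against 9.46% and 9.29% of genes. *Lag3* had 3 young and 368 old UMIs, a log2 ratio of 6.54 (4.98–8.83), and *Havcr2* 1 and 36. *Ctla4* was at 49.7 (38.1–63.8) and 279.5 (254–306) CPM, a log2 ratio of 2.49 (2.11–2.90), and *Pdcd1* at 22.5 (14.9–32.5) and 93.2 (79–109) CPM, a log2 ratio of 2.05 (1.46–2.69). The costimulatory receptors were past 2-fold here as well. *Cd28* was at 77.8 (63.1–94.9) and 542 (507–579) CPM, a log2 ratio of 2.80 (2.50–3.12), and *Tnfrsf4* at 16.9 (10.4–25.7) and 106 (90.8–123) CPM, a log2 ratio of 2.65 (2.0–3.38), whereas *Icos* was lower, at 487 (449–527) and 239.9 (217–265) CPM, a log2 ratio of -1.02 (-1.21 to -0.84). The makeup of these cells differed between the libraries, with *Il7r* at 586 and 268 CPM and *Eomes* at 20.1 and 260 CPM, and the part of that in the members' ratios was not tested.

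Cells with UMIs of 2 or more inhibitory receptors made up higher shares of CD4+, CD8+ and CD4-CD8- T cells in the old library. Such shares rise where single receptors are detected in more cells, and joint detection beyond that was not tested. After thinning to 2000 UMIs, which left out 3 young and 32 old CD4+ T cells, 2 of 99 young CD4+ T cells had UMIs of 2 or more of the 5 inhibitory receptors, a share of 2.02% (0.246–7.11%) with its exact Clopper-Pearson 95% interval. Among 1039 old CD4+ T cells the share was 19.2% (16.8–21.7%). In CD8+ T cells the shares were 2.58% (0.708–6.48%) of 155 young and 17.3% (15.1–19.7%) of 1096 old cells, and in CD4-CD8- T cells 2.34% (0.486–6.7%) of 128 young and 17% (15–19.2%) of 1275 old cells. These intervals did not overlap. The small young counts depended on the random draw of UMIs. Over 50 draws, chosen as a check after the data were seen, the young mean was 4.57% (range 1.01–7.07%) in CD4+, 3.61% (0.645–5.16%) in CD8+ and 1.86% (0.781–3.91%) in CD4-CD8- T cells, all below the lowest old draws of the same classes. Treg cells had 13.8% (3.89–31.7%) of 29 young and 21.4% (14.2–30.2%) of 112 old cells, an overlap of intervals. No ILC2 among 1301 young and 305 old cells had 2 in this draw, with upper interval ends of 0.283% and 1.2%.

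**Figure D3:**
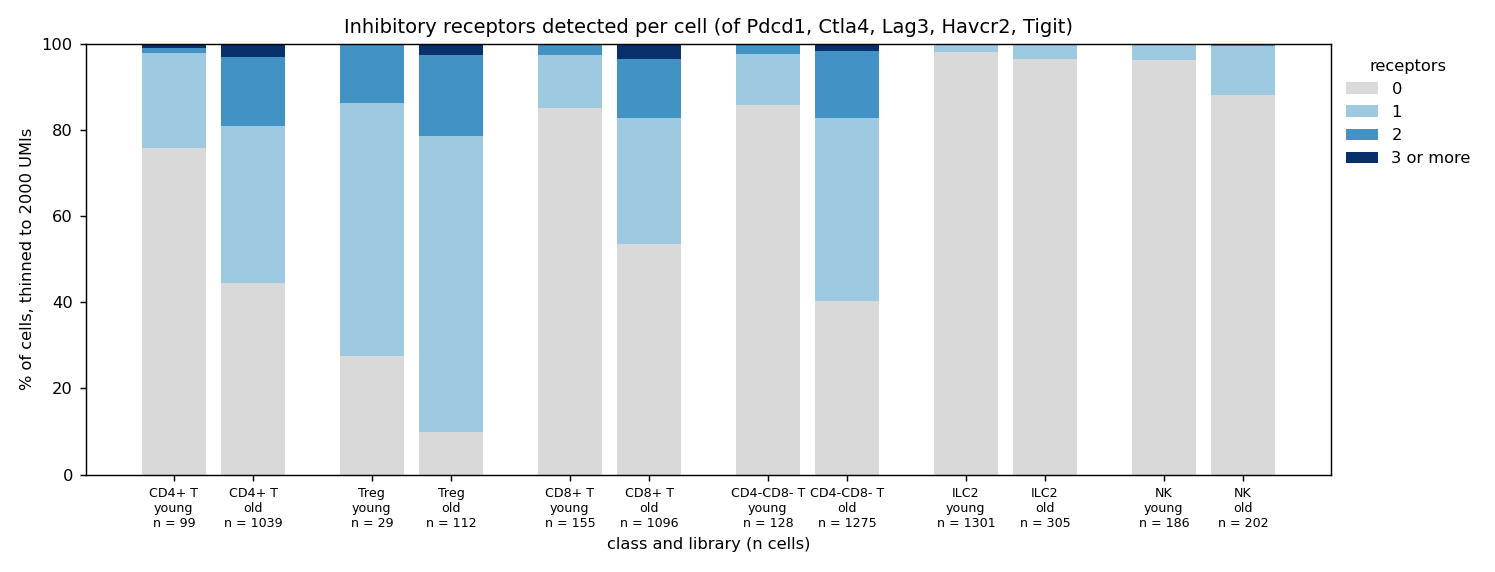
Share of cells (stacked bars, in %) with UMIs of 0, 1, 2, or 3 or more of the 5 inhibitory receptor genes after thinning to 2000 UMIs, by class and library. The dark parts, 2 or more receptors, reach 17.0 to 21.4% in the 4 old T cell classes and 13.8% or less in the young ones.

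In old CD8+ T cells, *Lag3*, *Havcr2* and *Ctla4* were detected at higher shares in cells with *Pdcd1* than in cells without it. After thinning, *Lag3* was found in 43.1% (35.2–51.4%) against 20.8% (18.2–23.5%) of 153 cells with and 943 cells without a *Pdcd1* UMI. *Havcr2* was in 12.4% (7.64–18.7%) against 4.56% (3.32–6.09%), and *Ctla4* in 32.7% (25.3–40.7%) against 21.6% (19–24.4%). *Tigit*, in 1.96% (0.406–5.62%) against 1.27% (0.659–2.21%), and the other inhibitory receptor gene *Cd160*, in 7.19% against 7.32%, showed no such gap. *Tox* was in 47.1% (38.9–55.3%) against 22.4% (19.8–25.2%), and *Nr4a2*, an immediate early nuclear receptor gene, in 69.3% against 46%. The opposite held for *Tcf7* and *Slamf6*, which mark memory-like and progenitor T cells: *Tcf7* was in 7.84% (4.12–13.3%) against 18.5% (16–21.1%) and *Slamf6* in 5.88% (2.72–10.9%) against 15.7% (13.4–18.2%). The general T cell gene *Cd3e* was in 86.9% against 80.5%. In old CD4+ T cells *Lag3* was in 31.3% (23.9–39.5%) against 16.8% (14.4–19.4%) and *Tox* in 45.6% (37.4–54%) against 26.7% (23.8–29.7%), but *Tcf7* was in 20.4% (14.2–27.8%) against 24.9% (22.1–27.9%), with overlapping intervals. The intervals of the other inhibitory receptors also overlapped there. *Ctla4* was in 51% (42.7–59.3%) against 40.4% (37.1–43.7%), *Havcr2* in 1.36% (0.165–4.83%) against 2.58% (1.64–3.84%) and *Tigit* in 0.68% against 0.448%. In old CD4-CD8- T cells *Lag3* was in 38.5% (29.6–47.9%) against 35.2% (32.5–38.1%) of 117 and 1158 cells, with overlapping intervals. *Tox* was in 42.7% (33.6–52.2%) against 29.7% (27.1–32.4%) of them. *Tcf7* was in 43.6% (34.4–53.1%) against 55.7% (52.8–58.6%), with intervals that overlapped slightly. *Cxcr5*, the receptor that guides cells into B cell follicles, was at 4.7 and 83.9 CPM in CD4-CD8- T cells, from 3 and 534 UMIs. Young cells with *Pdcd1* UMIs were too few to split.

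Of the receptors, *Havcr2* had the largest gap between dividing and other old CD8+ T cells. It was at 49.7 CPM in 281 cells with *Mki67* or *Top2a* UMIs and at 25.7 CPM in the other 851, a log2 ratio of 0.95 (0.60–1.30). The same ratio was 0.39 (0.23–0.55) for *Lag3*, 0.48 (0.26–0.69) for *Pdcd1* and -0.33 (-0.45 to -0.22) for *Cd28*. With cycling cells left out, the old over young log2 ratio of *Havcr2* in CD8+ T cells was 2.18. It rests on 4 UMIs in 133 young cells and 137 in 851 old ones, as 15 young UMIs lay in 26 cycling cells.

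The ligand genes are neighbors. On GRCm38 (mm10), *Cd274* lies at chr19:29367455-29388095 and *Pdcd1lg2* at chr19:29410919-29471161, both on the plus strand and 22823 bases apart. *Cd28*, *Ctla4* and *Icos* form another such group on chromosome 1, 113640 and 62094 bases apart in that order. The levels of the ligand genes part in tubule cells, as described below, so their RefSeq promoters (GRCm38.p6, 250 bases before to 50 after the start, 300 bases in all) are shown. Capitals mark GAAANNGAA on either strand, letters found in interferon-stimulated response elements.
Cd274 (chr19:29367188-29367487, plus strand): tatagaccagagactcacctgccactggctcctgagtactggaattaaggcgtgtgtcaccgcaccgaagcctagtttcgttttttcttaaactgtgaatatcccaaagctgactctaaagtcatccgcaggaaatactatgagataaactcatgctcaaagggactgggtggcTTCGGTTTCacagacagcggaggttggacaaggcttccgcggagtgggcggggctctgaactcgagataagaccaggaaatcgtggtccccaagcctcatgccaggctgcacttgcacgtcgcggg
Pdcd1lg2 (chr19:29410669-29410968, plus strand): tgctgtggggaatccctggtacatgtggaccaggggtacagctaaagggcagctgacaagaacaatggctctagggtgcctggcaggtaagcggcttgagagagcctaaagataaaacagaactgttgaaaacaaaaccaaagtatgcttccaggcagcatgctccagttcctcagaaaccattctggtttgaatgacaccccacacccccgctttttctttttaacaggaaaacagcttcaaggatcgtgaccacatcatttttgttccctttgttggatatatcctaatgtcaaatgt
The *Cd274* promoter holds 1 such match and that of *Pdcd1lg2* 0. The letters occur in 8.56% of 32851 promoters of this length, among them those of *Ctla4* and *Tnfrsf4*. TTCNNNGAA, a GAS-like site, and TGANTCA, an AP-1-like site, were searched as well and had 0 matches in both ligand gene promoters. Of the 10 members, 7 had a promoter sequence. A match of letters describes the sequence only.

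*Cd274* was higher in old monocytes and neutrophils. In monocytes it was at 23.2 (15.7–32.9) and 147 (135–160) CPM, a log2 ratio of 2.66 (2.14–3.23), and 13.1% of 153 young and 58.6% of 302 old cells had a UMI. Neutrophils had 30.2 (19.5–44.5) and 192 (170–217) CPM, a log2 ratio of 2.67 (2.08–3.32). Within cells with only Y-linked UMIs these log2 ratios were 2.50 and 2.90. Macrophages had 45.4 (27.8–70.2) and 119 (99.7–142) CPM, a log2 ratio of 1.39 (0.71–2.15). The 80 young macrophages were shallower than the 52 old ones (median 4743 against 15082.5 UMIs), 1 of them held 50% of the young *Cd274* UMIs, and among macrophages with only Y-linked UMIs the log2 ratio was -0.16. The myeloid gene *Lyz2* had 1212 of 440175 UMIs in young and 23872 of 1098491 in old macrophages. Whether the same kinds of cell fill this gate at both ages was not tested, for any gene compared in macrophages here. B cells were the highest young class, at 82.1 (68.3–97.9) and 99.7 (82–120) CPM, and their intervals overlapped between the ages. ILC2s had 10.3 (8.17–12.9) and 45.1 (36.2–55.5) CPM, a log2 ratio of 2.12 (1.67–2.58) that ran from 1.63 to 2.75 over 11 alternatives. After thinning, 2% (1.31–2.91%) of young and 13.8% (10.1–18.2%) of old ILC2s had a *Cd274* UMI. Treg cells had 15.8 (3.25–46.1) and 83.5 (63.6–108) CPM. CD4-CD8- T cells were at 25.1 and 25 CPM. Dendritic cells had no *Cd274* UMI in 52 young cells and 26 UMIs in 3 of 15 old cells, at least 21.3-fold higher against the limit of 3 counts over the young class.

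*Pdcd1lg2* was lower in level and also higher in old myeloid cells. Monocytes had 8.22 (4.1–14.7) and 31.6 (26.1–37.8) CPM, a log2 ratio of 1.94 (1.05–2.98), and neutrophils 3.62 and 28.6 CPM, from 3 and 39 UMIs. Macrophages had 0 and 30 UMIs, at least 4.01-fold higher. Treg cells were at 31.6 (11.6–68.7) and 41 (27.5–58.9) CPM, with overlapping intervals. ILC2s held 26.6 (23.1–30.6) and 36.9 (28.9–46.4) CPM, a log2 ratio of 0.47 (0.06–0.86), and did not differ from the neighboring classes in the order beyond counting error. CD8+ T cells had 1 young UMI and 87 old ones. In CD4-CD8- T cells *Pdcd1lg2* was lower in the old library, at 17.2 (8.61–30.9) and 7.23 (5.29–9.64) CPM, a log2 ratio of -1.25 (-2.23 to -0.16) that was -0.26 within cells with only Y-linked UMIs. At least 2-fold higher in the old library were 4 of 4 members in macrophages (*Lag3*, *Havcr2*, *Cd274* and *Pdcd1lg2*), 2 of 4 in monocytes and 2 of 3 in neutrophils (*Cd274* and *Pdcd1lg2* in both), where 10.7%, 6.16% and 4.42% of all genes were. In monocytes 1 of the 4, *Icos*, was at least 2-fold lower, with a log2 ratio of -1.75 (-2.88 to -0.64), as were 477 of 9125 genes. In macrophages *Havcr2* was at 22.7 (10.9–41.8) and 61 (47.3–77.5) CPM. *Lag3* was at 9.09 and 25.5 CPM there, from 4 and 28 UMIs, and the interval of its log2 ratio, 1.49 (-0.03 to 3.46), held 0. *Havcr2* in monocytes was at 25.4 (17.6–35.5) and 47.2 (40.5–54.7) CPM, a log2 ratio of 0.89 (0.36–1.47).

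**Figure D4:**
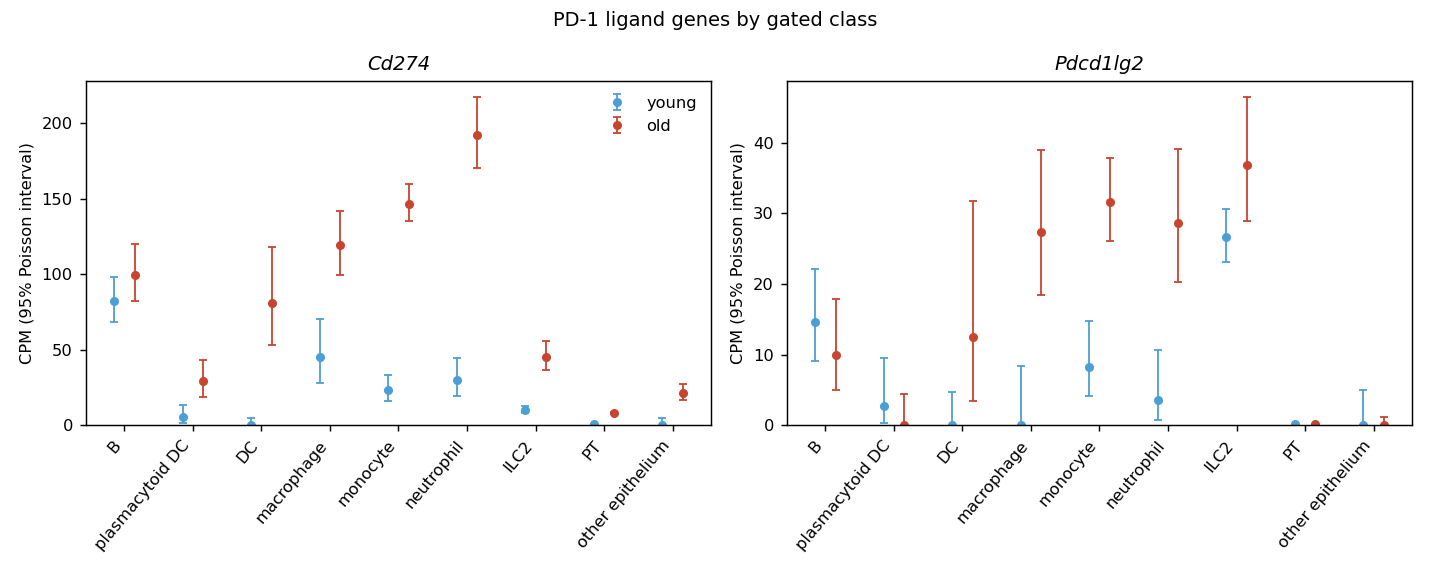
Levels in CPM of *Cd274* (left) and *Pdcd1lg2* (right) by gated class in the young (blue) and old (red) libraries, with exact Poisson 95% intervals. *Cd274* reaches 192 CPM in old neutrophils and 147 CPM in old monocytes, while *Pdcd1lg2* stays below 40 CPM in the classes shown apart from the upper ends of intervals.

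PT cells differed between the ages in *Cd274*, while *Pdcd1lg2* was near 0 at both. PT cells, the epithelial cells of the proximal tubule that take up filtered protein and glucose, had 55 *Cd274* UMIs in 6164 young cells and 515 in 3495 old cells. The level was 0.477 (0.36–0.621) and 7.81 (7.15–8.52) CPM, a log2 ratio of 4.03 (3.63–4.46). It was 3.99 in cells with only Y-linked UMIs and 5.51 in those with only *Xist* UMIs. Of young and old PT cells (median 15674.5 and 15799 UMIs), 0.762% and 7.12% had a UMI, and 0.165% and 1.56% after thinning. *Pdcd1lg2* was at 0.121 and 0.106 CPM in the same cells. The other gated epithelium had no *Cd274* UMI in 47 young cells and 69 in 144 old cells, 21.6 (16.8–27.3) CPM and at least 5.35-fold higher. Among members with enough UMIs, 4 of 8 were at least 2-fold higher in old PT cells, against 4.36% of all genes, but *Ctla4*, *Cd28* and *Tnfrsf4* were below 1 CPM there and are read as background. For each UMI of *Lyz2*, the lysozyme gene of myeloid cells, old PT cells had 0.963 UMI of *Cd274*, old monocytes 0.00807 and old neutrophils 0.0208. For each UMI of *Ptprc*, the gene of the pan-leukocyte antigen CD45, the old ratios were 1.68, 0.0899 and 0.0998. In the young library the same ratios were 0.211, 0.000862 and 0.00322 for *Lyz2*, and 0.101, 0.0184 and 0.0158 for *Ptprc*. Young endothelial cells held 43 *Cd274* and 4 *Lyz2* UMIs, so a high ratio to *Lyz2* is not particular to PT cells. How much *Cd274* in PT cells came from free RNA of other cells was not tested.

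The 92 old PT cells with 2 or more *Cd274* UMIs (median 22258.5 UMIs) were set beside the 3246 with 0 (median 15354 UMIs). Of 5948 genes with 50 or more UMIs in the former, 3.21% were at least 2-fold higher there. The highest ratios belonged to *Rsad2* (170.3 against 5.96 CPM), *Ifit2* (139 against 6.52 CPM), *Socs1* (43 against 2.03 CPM) and *Cxcl10* (821 against 48.5 CPM), which encode antiviral proteins, a feedback inhibitor of cytokine signaling and a T cell chemokine and are each known to be inducible by interferon. No test of a gene group was made. *Irf1*, a transcription factor induced by interferon-γ, was at 456 against 69.7 CPM, and at 2.73 CPM in young PT cells. The MHC class II gene *H2-Ab1*, whose product belongs to the ligands of LAG-3, was at 1059 against 564.5 CPM, and at 5.6 CPM in young PT cells. Leukocyte genes were not higher: *Ptprc* was at 2.61 against 4.58 CPM and *Lyz2* at 5.21 against 8.2 CPM. These rest on 6 and 12 UMIs in the 92 cells. The intervals of their log2 ratios, -0.81 (-2.27 to 0.33) and -0.65 (-1.62 to 0.16), held 0. The PT transporter gene *Slc34a1* was at 2943 against 2813 CPM. Cells were split by a measured gene here, deeper cells are more likely to have 2 UMIs, and the split describes the old library only. No UMI of *Pdcd1lg2*, *Cd80* or *Cd86* was found in the 92 cells.

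**Figure D5:**
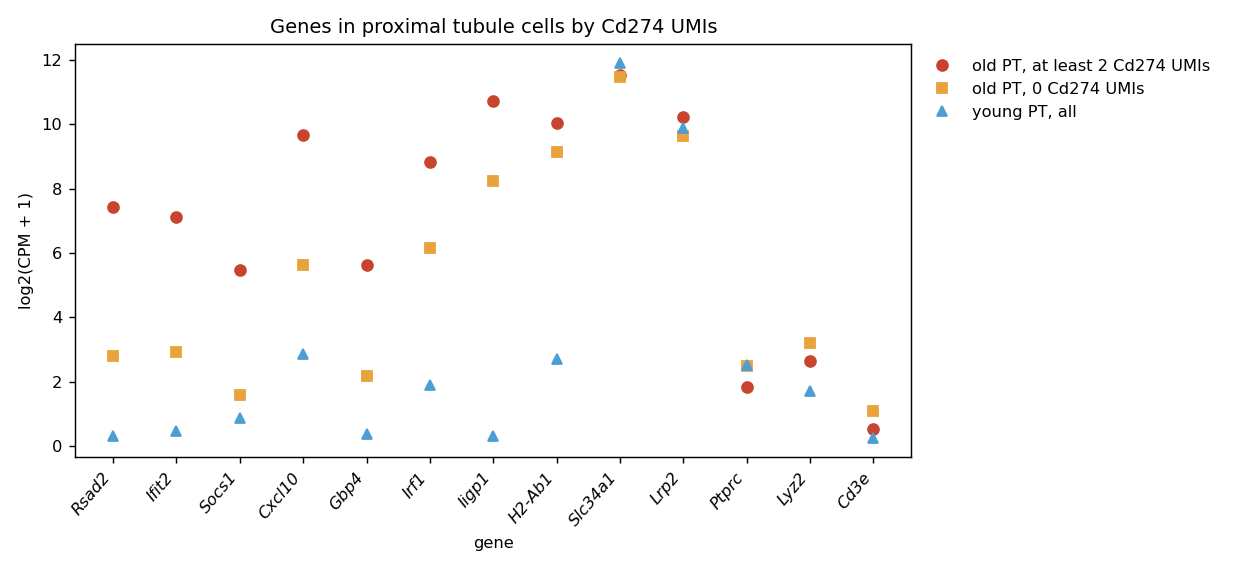
Levels as log2(CPM + 1) of genes chosen after their values were seen and of tubule and leukocyte genes in old PT cells with at least 2 *Cd274* UMIs (red circles), old PT cells with none (orange squares) and all young PT cells (blue triangles). *Rsad2*, *Cxcl10* and *Irf1* order the groups in this sequence, whereas the tubule gene *Slc34a1* lies close together in the 3 groups. *Ptprc* is lowest in the red group, from 6 UMIs, and does not differ from the orange group beyond counting error.

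The ligands of the other receptors showed no common direction. *Cd86*, a ligand of CD28 and CTLA-4, was at 525 and 144 CPM in macrophages, a log2 ratio of -1.87 (-2.17 to -1.57), and at 130 and 108 CPM in monocytes. *Cd80*, which binds the same receptors, was at 88.1 and 41.8 CPM in neutrophils and at 33.6 and 30.5 CPM in monocytes. *Icosl* was at 18.7 and 8.09 CPM in monocytes but at 39.7 and 81.6 CPM in B cells. *Lgals9*, which encodes a TIM-3 ligand, was at 91.2 and 59.9 CPM in monocytes and 65.9 and 92.8 CPM in macrophages. *Nectin2*, a ligand of TIGIT and CD226, was at 51.1 and 77.2 CPM in the other epithelium, and *Pvr*, whose product binds both as well, at 2.06 and 4.95 CPM in PT cells.

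Of 40 related genes, 32 had enough UMIs in CD4+ T cells, where 4 were at least 2-fold higher in the old library (*Tox*, *Tox2*, *Cxcr5* and *Entpd1*) and 2 lower (*Icosl* and *Cd70*), beside 10.0% and 4.54% of all genes. In CD8+ T cells 7 of 32 were higher, those 4 among them, and 3 lower (*Icosl*, *Cd226* and *Cd40lg*), beside 8.21% and 4.41%. *Tox*, a transcription factor of persistently stimulated T cells, had a log2 ratio of 1.12 (0.72–1.55) in CD4+, 1.17 (0.83–1.53) in CD8+ and 1.17 (0.79–1.57) in CD4-CD8- T cells. In CD4-CD8- T cells 9 of 29 were higher and 8 lower, beside 13.3% and 7.87%. *Cd27*, a costimulatory receptor of the TNF receptor family, was at 124 and 546 CPM there, whereas 4 of 6 other inhibitory receptor genes were lower (*Cd160*, *Cd244*, *Cd96* and *Cd200r1*). *Cd226*, the activating counterpart of TIGIT, was at 138 and 16.8 CPM in CD4-CD8- T cells, a log2 ratio of -3.04 (-3.46 to -2.61), at 131 and 43.6 CPM in CD8+ T cells and at 210.4 and 77.4 CPM in NK cells. Treg cells had 2 higher and 0 lower of 19 (all genes 10.7% and 4.33%), ILC2s 5 and 0 of 25 (all genes 7.78% and 4.74%), and NK cells 1 and 3 of 23 (all genes 2.86% and 7.83%). The shares in CD4+ T cells and Treg cells were near those of all genes. *Irf1* was among those higher in old ILC2s, at 85.1 and 203 CPM.

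Across 33 points, each a class of 1 library with at least 20 cells, the genes with the most similar profile were named by Pearson's r of log2(CPM + 1), as a description over points that share libraries. *Tnfrsf4* was closest to *Izumo1r*, the folate receptor 4 gene of Treg cells (r = 0.941), and *Ctla4* to the same gene (r = 0.892). *Icos* was closest to *Skap1*, an adaptor of T cell adhesion (r = 0.93), and the chemokine receptor gene *Cxcr6* (r = 0.921), *Cd28* to *Ctsw* (r = 0.903) and the kinase gene *Lck* (r = 0.891), and *Pdcd1* to *C230024C17Rik* (r = 0.89) and *Trbc1* (r = 0.868). *Havcr2* paired with the myeloid genes *Ms4a6c* (r = 0.828) and *Cd68* (r = 0.818). *Cd274* was closest to *B2m*, the light chain of MHC class I (r = 0.808), and *Pdcd1lg2* to *Capg* (r = 0.796) and *Tnfaip3* (r = 0.791). *Lag3* had the weakest match, *Gm11110* (r = 0.76), and *Tigit* had under 200 UMIs in all and was not ranked.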

How the data were processed

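Both libraries were made with 10x 3′ chemistry. The submitters' processing notes name Cell Ranger 3 and mm10, and the deposited values are raw UMI counts of genes in barcodes. The study's filters were applied: barcodes needed 200 genes or more, and no more than 20% of their UMIs could be mitochondrial. The UMI thresholds of the gates were set after the counts were seen; cells passing gates of more than 1 lineage were left out. The 10 members and the gene lists were chosen with earlier results of these data known. Doublets called by Scrublet in Scanpy 1.11.5 (328 young and 246 old cells) were kept. Python 3.11.15, NumPy 2.4.6, SciPy 1.17.1, pandas 2.3.3 and Matplotlib 3.10.9 were used. CPM came from summed UMIs. Genes with 20 or more UMIs over both libraries were called where the ratio was 2-fold or more in either direction, with a library at 0 set to 3 counts. Cells were thinned by random draws without replacement (seed 7). The calls and intervals were run on simulated counts of CD8+ T cells, drawn independently for each gene. Of 200 genes changed 4-fold, 99.5% were called right, and 5.67% of unchanged genes were called past 2-fold. Such draws cannot show the effect of UMIs gathered in single cells. Positions came from GENCODE M21. The text names the members, 40 related genes by counts and extremes, and the 2 most similar genes of each member with at least 200 UMIs. An item is not reported here. *Cxcr5*, *Eomes*, *Il7r*, *Klrk1* and the PT comparison genes were named after their values were seen. With 1 library per age, no p-values were computed.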

Additional observations from a re-analysis of the deposited data

Results flagged for a closer look

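In 2 members, ratios past 2-fold pointed in opposite directions in different T cell classes, with counting intervals off 0. *Pdcd1* had old over young log2 ratios of 1.17 in CD4+ and 2.86 in CD8+ T cells but -1.12 in Treg cells. *Pdcd1lg2* had 3.35 in CD8+ T cells, from 1 young UMI, but -1.25 in CD4-CD8- T cells. The difference between these classes was not tested, since each age has 1 library. In Treg cells the *Pdcd1* log2 ratio was -0.72 without the top cell of each library.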

How the results depend on the processing

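No paired analysis was possible because each age has 1 library. In the 6 classes CD4+, Treg, CD8+ and CD4-CD8- T cells, ILC2s and NK cells, member and class pairs past 2-fold numbered 14 higher and 5 lower, and 12 to 17 and 4 to 6 under the alternatives. Of 570 recomputed log2 ratios, 506 stayed within the counting interval of the value in the report. Among ratios past 2-fold, opposite in direction were *Pdcd1* in Treg cells, 0.59 in cells with only *Xist* UMIs, and *Cd274* in macrophages, -0.16 in cells with only Y-linked UMIs, and the cause was not tested. *Cd274* in PT cells had log2 ratios of 3.62 by the mean of each cell's CPM and 5.51 in cells with only *Xist* UMIs. With stricter gates, 22 of 25 ratios past 2-fold remained so; those in CD4+ T cells fell to 0.31 for *Pdcd1*, 0.93 for *Ctla4* and 0.05 for *Tigit*. *Icos* in ILC2s was at 881 (young) and 836 (old) CPM with abundant genes left out of the total, at 591 and 649 CPM by the mean of each cell's CPM, and at 679 CPM (young) in cells with at least 5000 UMIs. Shares of cells with at least 2 inhibitory receptors depend on depth by construction. At 1000 UMIs the old shares were 8.56% (CD4+), 7.75% (CD8+) and 5.99% (CD4-CD8-). At 4000 UMIs they were 32.6%, 31.5% and 39.5%, against 9.46%, 9.02% and 6.76% in the young library. Without thinning, old shares were 39.8%, 40.4% and 37.8%, against 12.7% and 10.7% in young CD4+ and CD8+ T cells; with stricter gates the old CD4+ share was 21.8%. Genes past 2-fold in either direction, among those with at least 100 UMIs in place of 20, were 8.16% against 14.6% in CD4+ T cells, 5.70% against 12.6% in CD8+ T cells, 5.06% against 12.5% in ILC2s, 6.53% against 11.4% in monocytes and 5.67% against 9.39% in PT cells. The top-cell, draw, cycling-split and PT alternatives were chosen after seeing the data.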
